A study of Mus musculus with 58 samples.

Results

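The genes described here encode the subunits of the mitochondrial respiratory chain and ATP synthase that are carried in the nucleus. They were taken by symbol, as rows for complex I (Nduf genes), complex II (Sdha to Sdhd), complex III (Uqcr genes and Cyc1), cytochrome c (Cycs), complex IV (Cox4 to Cox8 genes) and complex V (Atp5 genes) with at least 20 counts over all cells. Of the 23152 symbols with a row, 86 matched and 81 of them passed the minimum. The 5 others, Cox7b2, Cox8b, Cox8c, Ndufa4l2 and Ndufs5, had no count in any cell. No row lay just under the minimum, and the lowest members were Cox7a1 with 127 counts, Cox6a2 with 183 and Cox4i2 with 191. By complex the members were 34 for complex I, 4 for complex II, 9 for complex III, 1 for cytochrome c, 16 for complex IV and 15 for complex V. The other 2, Atp5s and Atp5sl, match by symbol but are not subunits of the enzyme. Ndufa4 is counted here with complex IV, where its protein resides.

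The respiratory chain passes electrons from NADH (complex I) and succinate (complex II) through ubiquinone to complex III, and on through cytochrome c to complex IV, which reduces oxygen. Protons pumped on the way return through complex V, which makes ATP. Most subunits are nuclear genes whose proteins are imported, and a small core is made inside the mitochondrion from its own genome. Long-term haematopoietic stem cells (LT-HSC) are known for low respiration and reliance on glycolysis, and their progeny, such as common myeloid progenitors (CMP), for higher respiratory activity.

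RNA was counted in 58 single bone marrow cells of wild type C57BL/6 mice, with no treatment, time or age given in the sources used here. The LT-HSC gate (Lin-cKit+Sca1+Flt3-CD34-) gave 34 cells and the CMP gate (Lin-cKit+Sca1-CD16/32-CD34+) gave 24. The labels also carry a passage entry on these cells, and its meaning for cells taken from bone marrow is not explained. LT-HSC 1 to 16 and LT-HSC 17 to 34 are treated as separate blocks of 16 and 18 cells, by the cell number in their titles. No label gives this cut or says what separates the blocks, and it was chosen with earlier results of these data known. No label names an animal either, so each gate or block is 1 sample. The differences below have no replicates behind them and were not tested, and every 95% interval is for counting error alone.

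Each LT-HSC 1 to 16 cell held 71197 to 338038 counts, each LT-HSC 17 to 34 cell 45022 to 860553 and each CMP 88329 to 706184. Marker genes fitted the gates in part. Procr, a surface receptor of LT-HSC, stood at 216 CPM in LT-HSC 1 to 16 (counts per 1000000 counts, summed over the cells of a block), 67.6 in LT-HSC 17 to 34 and 0.85 in CMP. Mpo, the granule enzyme of the myeloid lineage, stood at 0.59, 62.3 and 2086 CPM and Ctsg at 0.29, 11.5 and 1108. Elane, at 0.88, 0 and 634 CPM, and Gata1, at 7.04, 0.31 and 65.8, were instead lower in the second block than in the first, and Prtn3 stood at 329, 417 and 977. Of the other LT-HSC genes, Hlf, Mecom and Ly6a were ordered like Procr, while Mllt3 stood at 305, 12.1 and 21.1 CPM. Of the markers of other cells, Ms4a1 (B cells), Cd3d, Cd3e and Cd3g (T cells) and Adgre1 (macrophages) had no count, and the 4 macrophage genes summed to at most 0.076 per 10000 counts in any cell. The 4 B cell genes reached 2.19 per 10000 in LT-HSC 1 to 16, 5.003 in LT-HSC 17 to 34 and 2.53 in CMP, nearly all from Cd79b. Nkg7, a granule gene of killer cells and the 1 gene with counts among 4 on the T or NK list, stood at 2.35, 530 and 427 CPM. All 9 genes on the list of mature neutrophils had counts in each block, and their sum ranged from 2.19 to 4.47 per 10000 in LT-HSC 1 to 16, 2.21 to 6.06 in LT-HSC 17 to 34 and 0.030 to 59.4 in CMP. S100a8 among them had a count in all 58 cells, at 171, 147 and 434 CPM. Whether such counts show expression in the cell itself was not tested. The part of these genes in the results below was not tested. Xist had a count in 22 of 24 CMP and in none of the 34 LT-HSC, and CMP 1 and 2 were the CMP without it. Apart from those 2 cells, gate and sex of the donor cannot be told apart, and some ratios that move when only CMP 1 and 2 stand for CMP are also given that way.

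Together the 81 genes took a smaller share of the transcripts in LT-HSC 1 to 16 than in the other cells. Per 10000 counts of a cell, their sum was 257 in the lowest, 337 in the median and 487 in the highest LT-HSC 1 to 16 cell. In LT-HSC 17 to 34 these values were 332, 425 and 593, and in CMP 370, 466 and 588. Of the 16 cells of the first block, 12 lay below the lowest CMP and 15 below the CMP median, while the highest, LT-HSC 1, lay above that median. Against LT-HSC 17 to 34, 7 of the 16 lay below its lowest cell and 15 below its median. LT-HSC 17 to 34 and CMP overlapped widely, with 12 of 18 LT-HSC below the CMP median and 1 above the highest CMP. With every cell thinned to 97978 counts, which left out 6 shallower cells, the medians of the blocks were 341, 433 and 464. CMP 1 and 2 held 420 and 581, within the range of the other CMP.

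**Figure D1:**
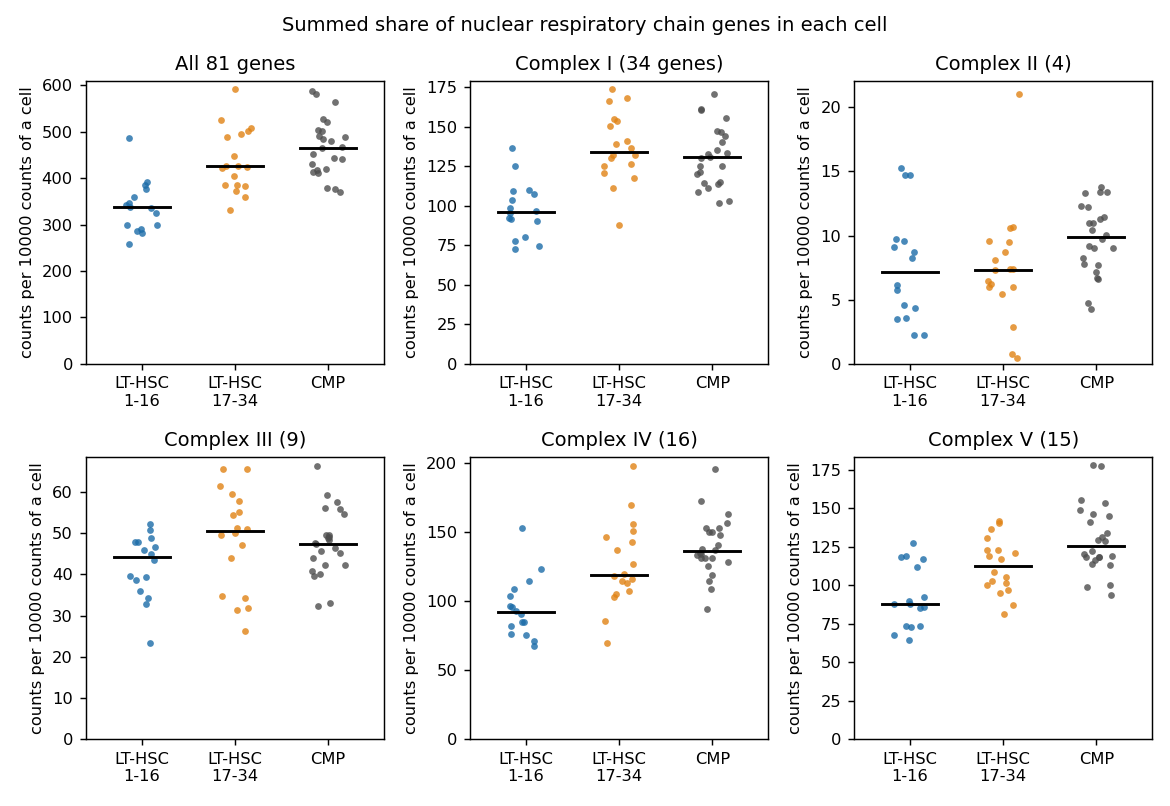
Summed counts of respiratory chain genes per 10000 counts of a cell, for all 81 genes and for each complex, with 1 point per cell and a bar at the median of LT-HSC 1 to 16 (16 cells), LT-HSC 17 to 34 (18) and CMP (24). The median of all genes is 337, 425 and 466. Below every CMP lie 10 of 16 LT-HSC 1 to 16 cells for complex I, 9 for IV and 11 for V. For complex II 4 do, and for complex III 1 does.

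The complexes differed in how far the first block lay apart. Complex I genes summed to a median of 95.8 per 10000 in LT-HSC 1 to 16, 134 in LT-HSC 17 to 34 and 131 in CMP, and 10 of the 16 first-block cells lay below every CMP. For complex IV the medians were 92.0, 119 and 136, with 9 of 16 cells below every CMP. For complex V they were 88.0, 113 and 126, with 11 of 16 below every CMP. The medians of complexes IV and V were thus higher at each step from LT-HSC 1 to 16 to CMP, whereas complex I was about the same in LT-HSC 17 to 34 and CMP. Complex III differed least among the larger complexes, with medians of 44.2, 50.5 and 47.5 and 1 of 16 cells below every CMP. Complex II, the only complex made wholly of nuclear subunits and shared with the tricarboxylic acid cycle, had medians of 7.18, 7.35 and 9.91, so here the medians of both LT-HSC blocks lay below that of CMP.

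Counted gene by gene against CMP, the low share of LT-HSC 1 to 16 was mostly made of moderate differences. Of the 81 members, 3 lay at or above a 2-fold excess in LT-HSC 1 to 16 over CMP, beside 22.7% of all 10937 genes with at least 20 counts, and 10 were at least 2-fold lower, beside 37.3%. The members' shares, 3.70% and 12.3%, lie below both background shares. The median log2 ratio of the members was −0.41 and that of all genes −0.36, so over all genes the members' median does not stand out. Over genes with at least 2000 counts, a minimum added after seeing the data that 75 members meet, 7.82% of 1342 genes were higher and 18.4% lower, with a median of −0.22. Below 0 lay 64 of the 81 members, among them all 15 of complex V and all 4 of complex II, beside 6391 of the 10937 genes and 808 of the 1342. Scaling the pools by the median of ratios in place of the total moved the median of all genes to −0.13 and that of the members to −0.18, with 6 members at least 2-fold lower. The total without cytoplasmic ribosomal protein genes gave −0.25 and −0.29.

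Between the summed counts of LT-HSC 17 to 34 and of CMP the members were nearly balanced. In this comparison 3 members exceeded CMP by at least 2-fold, beside 20% of all genes, and 1 was lower, beside 34.5%. The median was 0.00044 for the members and −0.24 for all genes, with 41 members above and 40 below 0. Over genes with at least 2000 counts the median was 0.08, with 9.31% higher and 6.33% lower. Complex I had a median of 0.12, complex III 0.09, complex IV 0.03, complex V −0.12 and complex II −0.37. With CPM averaged over cells, which gives deep cells no added weight, the median was −0.10 for the members and −0.26 for all genes. By cell, 12 of 18 LT-HSC had a members' share below the CMP median. Both comparisons share the CMP pool, so they are not independent of each other.

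Among whole-block comparisons at the minimum of 20 counts, that of the LT-HSC blocks had the members' median farthest from that of all genes. Members had a median log2 ratio of −0.46, LT-HSC 1 to 16 over 17 to 34, and all genes 0.02. Of the members, 10 were at least 2-fold lower in LT-HSC 1 to 16, beside 28% of all genes, and 3 were higher, beside 28.1%. Genes with at least 2000 counts were also lower in the first block, with a median of −0.26, 17.0% lower and 3.28% higher. The difference of the medians, members less all, was −0.48 at the minimum of 20 counts and −0.21 at that of 2000. At 2000 it was close to this for LT-HSC 1 to 16 over CMP, at −0.19. For all LT-HSC over CMP it was then −0.17, and for LT-HSC 17 to 34 over CMP −0.09. The medians by complex were −0.48 for I, 0.04 for II, −0.52 for III, −0.65 for IV and −0.31 for V. With CPM averaged over cells, the median was −0.30 for the members and 0.03 for all genes.

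Within complex I the N module, the tip of the matrix arm that oxidises NADH, had a median of −0.91 between the LT-HSC blocks. Below 0 lay 9 of its 10 members, beside 5419 of 10937 genes and 879 of the 1342 with at least 2000 counts. At least 2-fold lower were 3 of the 10, which is near the share of 28% of all genes. The Q module, where ubiquinone is reduced, had a median of −0.34 over 5 members, and the other 19, mostly of the membrane arm, −0.47. Within complex V the F1 head, which holds the catalytic sites, differed least, with a median of −0.06 over 5 genes. The peripheral stalk that holds the head in place had a median of −0.64, with all 4 genes below 0.

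Taking all 34 LT-HSC as 1 pool hides these differences. Against CMP, 3 members were then at least 2-fold higher, beside 22.7% of all genes, and 1 was lower, beside 28.1%, with a median of −0.13 for the members and −0.13 for all genes. At the minimum of 2000 counts 7.68% of genes were higher and 6.93% lower. Median-of-ratios scaling turned the members' median to 0.020, together with that of all genes. With CMP 1 and 2 as the only CMP, the median of all genes was 0.70 and that of the members −0.17. Then 5 members were higher and 5 lower, beside 46.2% and 22%. The 1342 genes that reach 2000 counts lay nearer the members, with a median of 0.09, 262 of them higher and 93 lower. Against CMP 1 and 2, LT-HSC 1 to 16 had 5 members higher and 14 lower, beside 39.4% and 30.6%. LT-HSC 17 to 34 had 5 higher and 2 lower, beside 39.5% and 27.7%. The medians of the 1342 genes were here −0.12 for LT-HSC 1 to 16 and 0.18 for LT-HSC 17 to 34. Of them 231 were higher and 233 lower in the first block, and 276 and 81 in the second. For members named by rule, which are the extremes, alternative forms and core genes and not all 81, 88 ratios to CMP were followed. Of these, 17 had the other sign with only CMP 1 and 2 and 16 moved by over 1.5-fold. Without CMP 1 and 2 these numbers were 4 and 2.

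**Figure D2:**
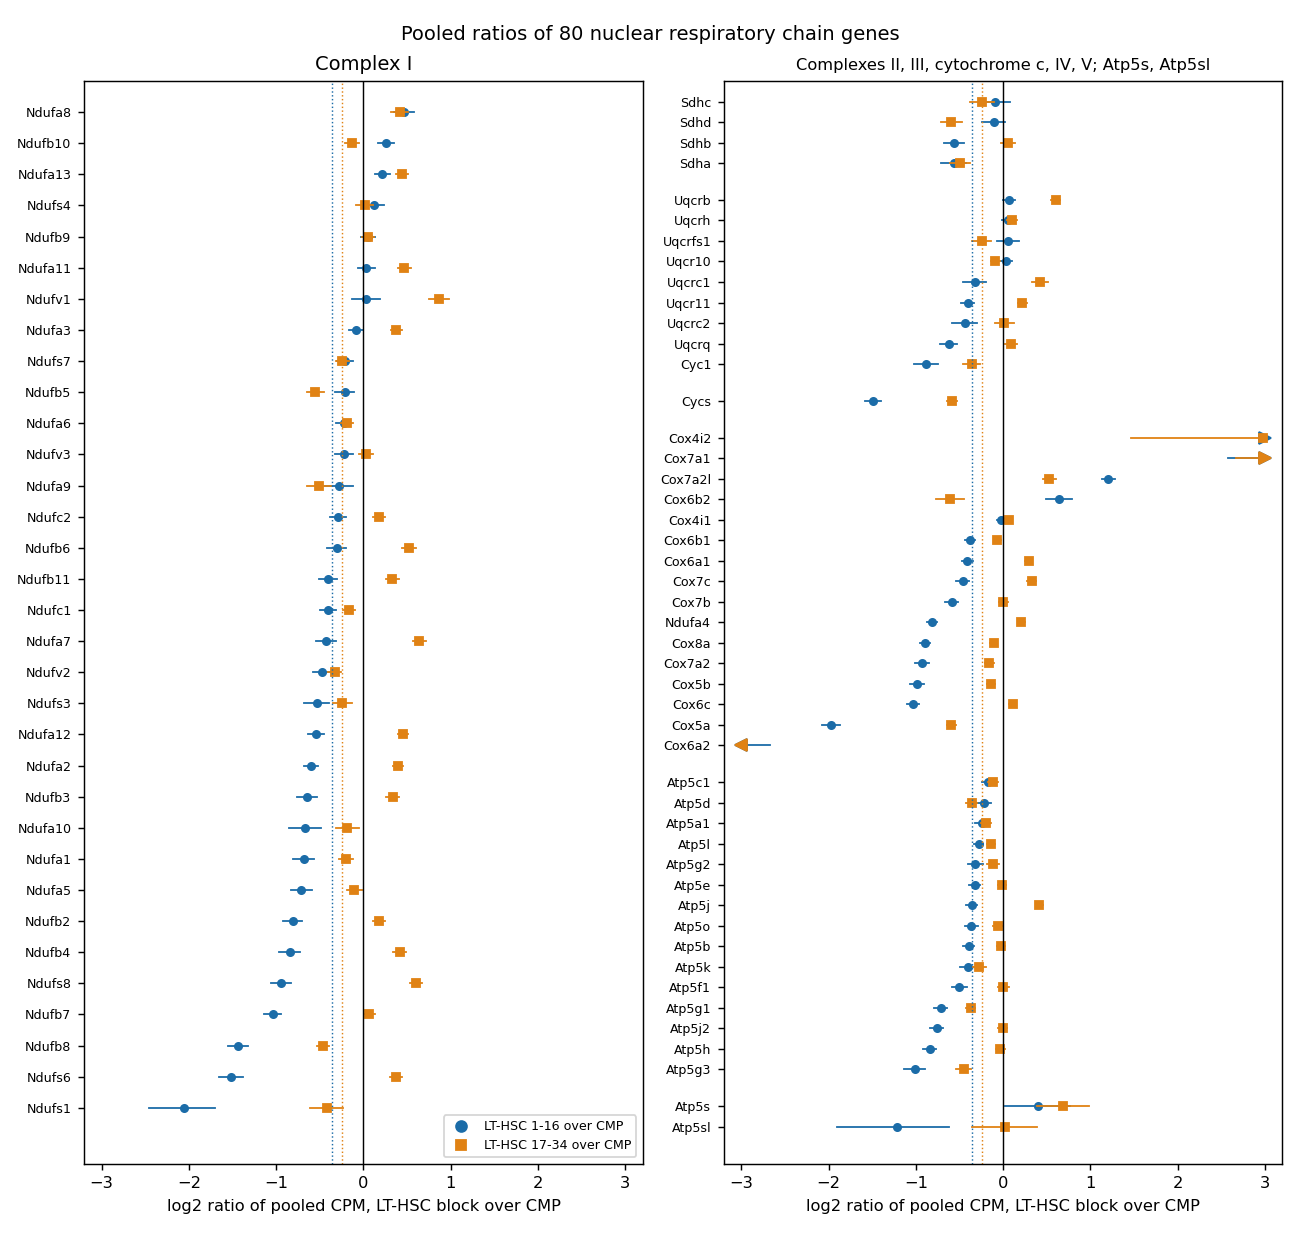
Log2 ratio of pooled CPM, LT-HSC 1 to 16 over CMP (circles) and LT-HSC 17 to 34 over CMP (squares), for 80 of the genes, sorted within a complex, with 95% counting intervals as lines. Dotted lines mark the medians of all 10937 genes, −0.36 and −0.24, and triangles at the edge mark ratios beyond the axis (Cox4i2, Cox7a1 and Cox6a2), while most circles lie left of their squares.

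The sequences upstream of a few members are shown because these genes lay at both ends of the ratios or held a motif. RefSeq promoter windows of mouse build GRCm38.p6 (mm10), from 250 bases before to 50 after the start, were matched for 64 of the 81 members, and the 250 bases before the start are printed 5′ to 3′ on the gene's strand. Cox5a (chr9:57520982-57521231, plus strand) and Cycs (chr6:50566570-50566819, minus strand) were among the lowest in LT-HSC 1 to 16, Cox7a2l (chr17:83514334-83514583, minus strand) among the highest, Ndufb7 (chr8:83566508-83566757, plus strand) holds an Ets motif and Ndufa11 (chr17:56717512-56717761, plus strand) an NRF1 motif. The starts are those of RefSeq. In GENCODE M21 the Cox7a2l gene spans 83501918 to 83517330, so its window lies within that gene. Part of the Ndufb7 window also lies within its GENCODE gene, which starts at 83566671. Capitals mark a motif match.
Cox5a: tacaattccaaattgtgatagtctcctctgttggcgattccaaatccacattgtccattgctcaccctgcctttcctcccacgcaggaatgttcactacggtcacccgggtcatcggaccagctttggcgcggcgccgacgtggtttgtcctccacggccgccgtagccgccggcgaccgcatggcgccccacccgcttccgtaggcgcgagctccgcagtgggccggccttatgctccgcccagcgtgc
Cycs: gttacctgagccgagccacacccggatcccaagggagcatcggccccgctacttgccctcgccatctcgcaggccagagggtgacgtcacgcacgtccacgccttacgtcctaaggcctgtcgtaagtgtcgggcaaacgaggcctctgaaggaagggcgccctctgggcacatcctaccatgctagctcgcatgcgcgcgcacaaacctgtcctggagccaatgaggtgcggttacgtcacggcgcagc
Cox7a2l: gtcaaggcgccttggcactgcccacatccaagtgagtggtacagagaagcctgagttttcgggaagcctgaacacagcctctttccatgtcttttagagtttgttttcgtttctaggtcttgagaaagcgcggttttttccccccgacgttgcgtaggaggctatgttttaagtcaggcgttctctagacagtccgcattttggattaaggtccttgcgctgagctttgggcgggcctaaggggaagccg
Ndufb7: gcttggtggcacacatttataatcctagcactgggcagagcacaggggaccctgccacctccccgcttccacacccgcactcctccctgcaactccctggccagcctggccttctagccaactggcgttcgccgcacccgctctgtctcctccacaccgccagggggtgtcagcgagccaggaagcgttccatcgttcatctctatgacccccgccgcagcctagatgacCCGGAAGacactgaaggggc
Ndufa11: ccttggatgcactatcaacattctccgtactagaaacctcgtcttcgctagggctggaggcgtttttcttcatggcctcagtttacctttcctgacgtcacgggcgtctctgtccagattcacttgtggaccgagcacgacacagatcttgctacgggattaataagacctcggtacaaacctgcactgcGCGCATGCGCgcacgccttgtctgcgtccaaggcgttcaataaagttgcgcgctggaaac

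These motifs belong to regulators known to bind respiratory chain promoters. Within the 300-base windows and on either strand, the NRF1 motif, the 10 capitals in the line for Ndufa11, which read the same on both strands, was in 5 of 64 member promoters (7.81%), 0.98% of all 27025 promoters and 2.29% of the 8401 whose gene had at least 20 counts. The Ets motif CCGGAAG, bound by GABP, was in 15 (23.4%), against 9.14% and 19.9%. The YY1 motif AAGATGGCG was in 6 (9.38%), against 1.48% and 3.55%. At least 1 of the motifs was in 24 member promoters (37.5%), 11.1% of all and 24.4% of those with counts. Of the 6 YY1 matches 5 lay at complex I genes, which made up 30 of the 64 member promoters. Members with the Ets motif had a median ratio of −0.41 for LT-HSC 1 to 16 over CMP, and those without it −0.39. For the NRF1 motif these were −0.32 and −0.41, and for YY1 −0.35 and −0.41. Between the LT-HSC blocks the medians with and without the motif were −0.61 and −0.46 for Ets, −0.43 and −0.47 for NRF1 and −0.11 and −0.48 for YY1. With 15, 5 and 6 genes holding a motif, these are descriptions without a test. A match describes letters in a window and does not show binding, and its absence says nothing of the factor.

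The catalytic core of complex I differed by subunit. Ndufs1, the largest subunit of the N module and holder of several iron-sulfur clusters (chromosome 1, 63143596 to 63176833, minus strand), had 19.4 CPM in LT-HSC 1 to 16 (interval 15 to 24.6), 60.4 in LT-HSC 17 to 34 and 81 in CMP. In single cells its lowest, median and highest values were 0, 3.55 and 151 CPM in the first block, 0, 0 and 253 in the second and 0, 29.1 and 327 in CMP. The log2 ratio to CMP was −2.06 in LT-HSC 1 to 16, but LT-HSC 15 held 68% of that block's counts, and without it the ratio was −3.55. With only CMP 1 and 2 as CMP it was −1.09. The ranges overlapped, and 14 of 16 cells lay below the CMP median. Ndufs1 overlaps Eef1b2 on the opposite strand, and whether counting used strand is not given in the sources used here.

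Ndufs6, a zinc-binding N module subunit needed for its attachment (chromosome 13, 73319838 to 73328542, minus strand), stood at 152 CPM in LT-HSC 1 to 16, 565 in LT-HSC 17 to 34 and 435 in CMP. Cells of the first block ranged from 15.4 to 658 CPM with a median of 35.3, those of the second from 9.88 to 1656 with a median of 346, and CMP from 45.5 to 1050 with a median of 461. The median cell of the first block was thus close to its lowest, and 15 of 16 were below the CMP median. Its log2 ratio was −1.51 to CMP (interval −1.65 to −1.38) and −1.89 to LT-HSC 17 to 34. A near-identical copy, Ndufs6b, makes its counts uncertain, and it overlaps Mrpl36 on the opposite strand.

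Ndufs8, a Q module subunit that carries iron-sulfur clusters, stood at 220, 644 and 423 CPM, with cell medians of 128, 609 and 396. Of 16 first-block cells, 14 lay below the median of LT-HSC 17 to 34. The log2 ratio between the LT-HSC blocks was −1.55 (interval −1.67 to −1.44), and that of LT-HSC 17 to 34 to CMP was 0.61.

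In LT-HSC 1 to 16, other core members of complex I lay nearer to CMP than Ndufs1, Ndufs6 and Ndufs8. Ndufv1, the subunit that binds NADH and flavin, had log2 ratios to CMP of 0.03 in the first block and 0.87 in the second, or −0.57 and 0.27 with only CMP 1 and 2. For its partner Ndufv2 these were −0.48 and −0.33, for Ndufs3 −0.53 and −0.24 and for Ndufs7 −0.21 and −0.25. Among accessory subunits, Ndufb8 of the membrane arm was at 221, 432 and 597 CPM, and all 16 first-block cells lay below the CMP median, with a range of 12.7 to 439 CPM against 105 to 1179. Its log2 ratio to CMP was −1.43 (interval −1.55 to −1.32), and it shares its strand with the overlapping model Gm20538. Ndufb7, whose promoter is printed above, had a ratio of −1.04 to CMP and −1.11 to LT-HSC 17 to 34. Ndufb4 was the member of complex I with all 16 first-block cells below the median of LT-HSC 17 to 34, at 208 CPM against 500 and a log2 ratio of −1.26. Ndufa7 (−1.07) also passed 2-fold between the LT-HSC blocks, but without LT-HSC 34 its ratio was −0.89. A few accessory subunits went the other way. Ndufa8 had 305, 294 and 221 CPM. Its log2 ratio to CMP was 0.47 in the first block (interval 0.35 to 0.58), where 13 of 16 cells lay above the CMP median. Ndufb10 stood at 426, 325 and 355 CPM, and its ratio of 0.39 between the LT-HSC blocks was −0.0016 without LT-HSC 16, which held 31% of the first block's counts.

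Cycs, the soluble carrier between complexes III and IV and, once released, a trigger of apoptosis (chromosome 6, 50562563 to 50566538, minus strand), had a higher pooled level at each step from LT-HSC 1 to 16 to CMP. It stood at 334 CPM in LT-HSC 1 to 16 (interval 315 to 354), 625 in LT-HSC 17 to 34 (interval 606 to 644) and 938 in CMP (interval 915 to 961). Cells ranged from 14 through a median of 216 to 1130 CPM, from 9.53 through 463 to 1537, and from 328 through 889 to 2167. Of the first block, 11 of 16 cells lay below the lowest CMP, and of the second 7 of 18. The log2 ratio to CMP was −1.49 in the first block and −0.59 in the second. LT-HSC 10 held 32% of the first block's counts, and without it the ratio was −1.91.

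Cox5a, a core accessory subunit on the matrix side of complex IV (chromosome 9, 57521274 to 57532426, plus strand), separated LT-HSC 1 to 16 from CMP more than any other well-counted member of that complex. Its pooled level was 248 CPM in LT-HSC 1 to 16 (interval 232 to 265), 646 in LT-HSC 17 to 34 (interval 627 to 666) and 974 in CMP (interval 951 to 997). Single cells had a lowest, median and highest value of 19.2, 149 and 805 CPM in the first block, 9.63, 476 and 1939 in the second and 206, 905 and 2044 in CMP. All 16 first-block cells lay below the CMP median, and 14 of 18 second-block cells did. The log2 ratio to CMP was −1.97 in the first block and −0.59 in the second. It was −1.94 without CMP 1 and 2 and −2.10 with only these.

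Its companion Cox5b had ratios to CMP of −0.99 and −0.14, with a processed copy, Gm11273, that makes its counts uncertain. Cox6c, a small membrane subunit, stood at 670, 1481 and 1373 CPM, a ratio of −1.04 for LT-HSC 1 to 16 over CMP, and LT-HSC 1 held 30% of that block's counts. It has near-identical copies too, Cox6c2 and Gm16399. Ndufa4 had all 16 first-block cells below the median of LT-HSC 17 to 34, with 865 against 1765 CPM, and its ratio of −1.03 was −0.89 without LT-HSC 18. Cox8a had ratios to CMP of −0.90 and −0.11 and Cox7b of −0.59 and 0.0026.

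**Figure D3:**
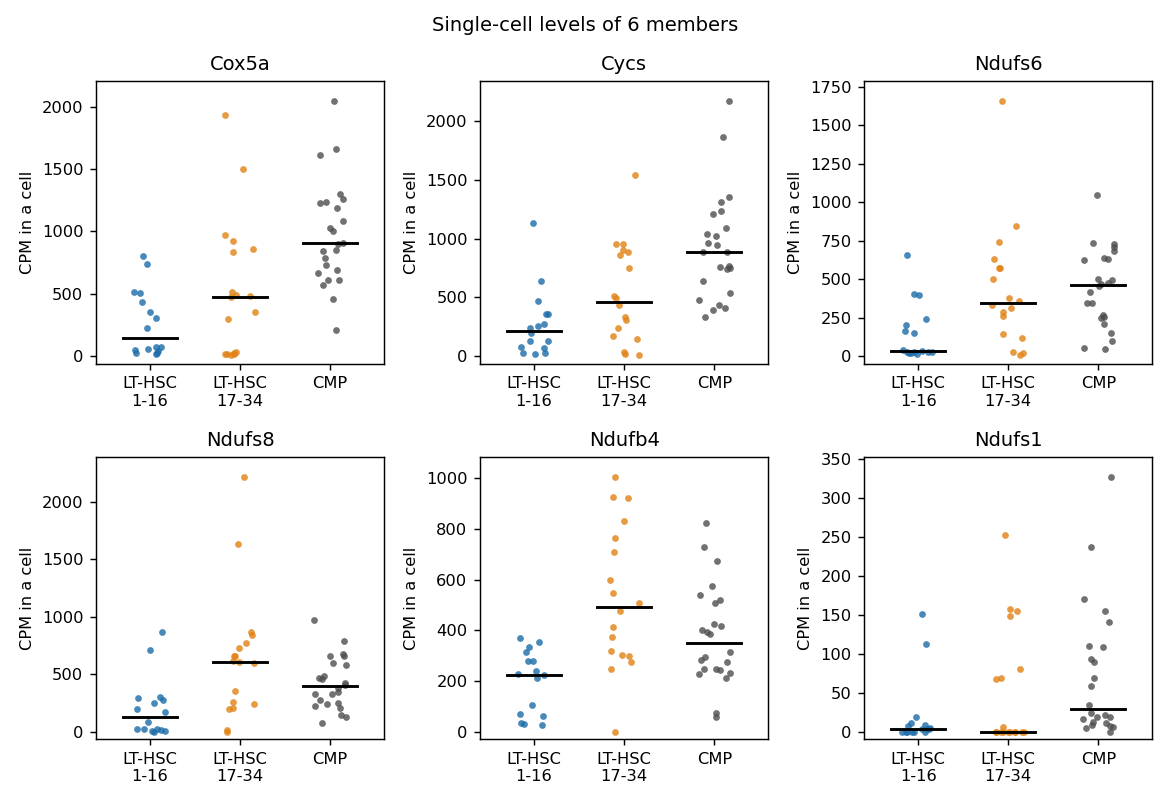
CPM in each single cell for Cox5a, Cycs, Ndufs6, Ndufs8, Ndufb4 and Ndufs1, with 1 point per cell and a bar at the median of each block. Cox5a and Cycs medians step up from LT-HSC 1 to 16 (149 and 216 CPM) to CMP (905 and 889), Ndufs6 and Ndufs8 are low in the first block alone, and for Ndufb4 all 16 first-block cells lie below the median of LT-HSC 17 to 34 (491 CPM).

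Complex IV has subunits encoded by alternative genes, in part specific to heart and muscle or to lung, and these differed most in ratio while contributing few counts. Cox4i1, the broadly used form of subunit 4, stood at 1647, 1752 and 1676 CPM, with ratios to CMP of −0.03 and 0.06. Cox4i2, the form known from lung and from oxygen sensing (chromosome 2, 152754173 to 152765037, plus strand), stood at 47.8 CPM in LT-HSC 1 to 16, 3.83 in LT-HSC 17 to 34 and 0.42 in CMP. Its counts came from few cells. In the first block LT-HSC 10 had 63 counts, LT-HSC 16 had 55, LT-HSC 12 had 33, LT-HSC 13 had 11 and LT-HSC 11 had 1, and the other 11 cells had none. In the second block LT-HSC 28 held all 25 counts, and in CMP cell 23 had 2 and cell 18 had 1. Cells with 10 or more counts thus numbered 4 of 16, 1 of 18 and none of 24. The log2 ratio of LT-HSC 1 to 16 to CMP was 6.60 (interval 5.24 to 9.11), and 7.75 without CMP 23. That of LT-HSC 17 to 34 was 2.98, but without LT-HSC 28 the block held no count, and CMP held 3 in all.

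Cox7a2l (chromosome 17, 83501918 to 83517330, minus strand) is also known as a factor in the joining of complexes III and IV into supercomplexes. Whether the mice used here make a form of the protein with this role was not tested, and RNA counts do not show it. The gene was the 1 member with over 2000 counts at least 2-fold higher in LT-HSC 1 to 16 than in CMP. It stood at 820 CPM in LT-HSC 1 to 16 (interval 790 to 851), 512 in LT-HSC 17 to 34 (interval 495 to 530) and 356 in CMP (interval 342 to 370). Cells ranged from 249 through a median of 831 to 2709 CPM in the first block, from 154 through 526 to 1729 in the second and from 76.0 through 338 to 732 in CMP. In each LT-HSC block 14 cells lay above the CMP median, of 16 and of 18. The log2 ratio to CMP was 1.21 and 0.53, and with only CMP 1 and 2 the first was 0.95. Its paralogue Cox7a2 went the opposite way, at 465, 794 and 886 CPM, with 14 of 16 first-block cells below the CMP median and a ratio of −0.93.

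Cox7a1, the heart and muscle form, rested on single cells. LT-HSC 4 held 40 of the 41 counts of the first block and LT-HSC 34 held 71 of the 80 of the second, where LT-HSC 19 had the other 9. CMP held 6 counts, 1 in each of 6 cells. The ratios of 3.72 and 3.75 to CMP became −0.94 without LT-HSC 4, on 1 count, and 0.83 without LT-HSC 34, and with only CMP 1 and 2 they were 2.65 and 2.67. Cox6a2, the muscle form of subunit 6a, went the other way, at 1.76, 0.15 and 24.9 CPM. CMP 2 had 93 and CMP 1 had 58 of its 176 CMP counts, so the cells without an Xist count held most of them. Its ratio for LT-HSC 1 to 16 was −3.71, −1.21 without CMP 1 and 2 and −5.95 with only these. Cox6a2 overlaps Itgad on the opposite strand. Its broadly used paralogue Cox6a1 stood at 843, 1373 and 1123 CPM.

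Cox6b2, the form of subunit 6b known from testis, was at 187 CPM in LT-HSC 1 to 16, 78.8 in LT-HSC 17 to 34 and 120 in CMP. The median cell had 56.3, 6.05 and 88.2 CPM, and the ratio between LT-HSC blocks was 1.24, or 0.98 without LT-HSC 3 and 1.99 without LT-HSC 17. Its ratios to CMP were 0.64 and −0.61, and 4.52 and 3.27 with only CMP 1 and 2. Cox6b1 had ratios to CMP of −0.38 and −0.07. Of the remaining alternative forms, Cox7b2, Cox8b, Cox8c and Ndufa4l2 had no count, beside Cox7b, Cox8a and Ndufa4, which had a count in each of the 58 cells.

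**Figure D4:**
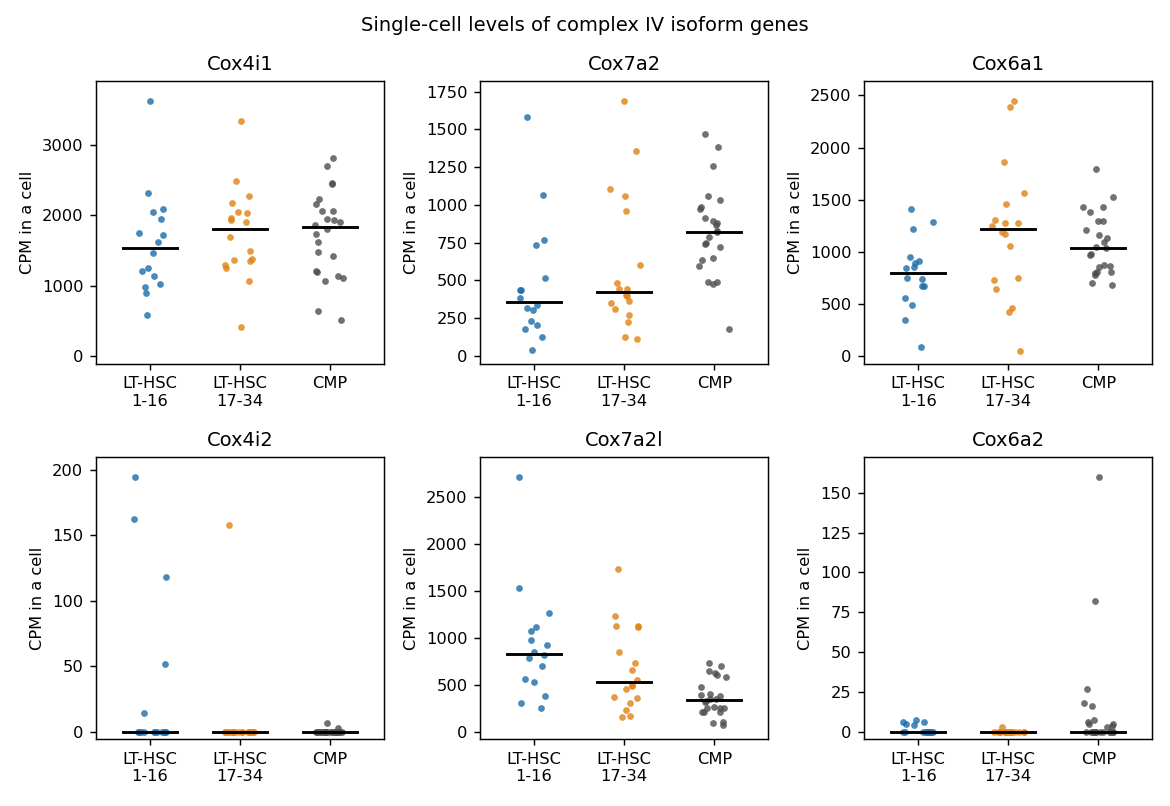
CPM in each single cell for the broadly used complex IV genes Cox4i1, Cox7a2 and Cox6a1 (top) and their relatives Cox4i2, Cox7a2l and Cox6a2 (bottom), with 1 point per cell and a bar at the block median. Cox7a2 and Cox7a2l run in opposite directions over the blocks, Cox4i2 is above 50 CPM in 4 cells of LT-HSC 1 to 16 and 1 of LT-HSC 17 to 34, and Cox6a2 is above 50 CPM in CMP 1 and 2 only.

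In the pools of both LT-HSC blocks all complex II and III genes lay within 2-fold of CMP. Complex II had a median ratio of −0.33 in the first block and −0.37 in the second, and complex III −0.32 and 0.09. Sdha, the flavoprotein that oxidises succinate, had ratios to CMP of −0.57 in the first LT-HSC block and −0.49 in the second. Sdhb, the iron-sulfur subunit, had −0.56 and 0.05, and the membrane anchors Sdhc and Sdhd had −0.09 and −0.24, and −0.11 and −0.59. Of complex III, Cyc1, the haem protein that hands electrons to cytochrome c, lay lowest, at 154, 221 and 283 CPM with ratios of −0.88 and −0.36. The Rieske protein gene Uqcrfs1 had 0.06 and −0.24, and the core proteins Uqcrc1 and Uqcrc2 −0.32 and 0.42, and −0.44 and 0.01. LT-HSC 1 held 40% of the first block's Uqcrc2 counts, and without it the ratio was −1.05. Without LT-HSC 4 the first-block ratio of Sdhb was −1.05, and without LT-HSC 15 that of Cyc1 was −1.09, so these also passed 2-fold. With only CMP 1 and 2 as CMP the Uqcrc2 ratios were 0.29 and 0.74.

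ATP synthase differed by part. The F1 genes Atp5a1, Atp5b, Atp5c1, Atp5d and Atp5e had ratios to CMP of −0.25, −0.39, −0.18, −0.22 and −0.32 in the first block, and that of Atp5a1 was 0.10 with only CMP 1 and 2. Atp5b, the catalytic beta subunit, stood at 936, 1213 and 1231 CPM, with 14 of 16 first-block cells below the CMP median. The c ring that turns in the membrane is built from 1 protein encoded by Atp5g1, Atp5g2 and Atp5g3, and the pooled levels of all 3 genes were lower in both LT-HSC blocks than in all 24 CMP. Their ratios were −0.72, −0.32 and −1.01 for the first block, and for the second −0.37, −0.12 and −0.45. Without LT-HSC 12 the first-block ratio of Atp5g3 was −0.90, and with only CMP 1 and 2 as CMP its ratios were −0.08 and 0.48, so its lower level in LT-HSC does not hold against these cells. Atp5g1 and Atp5g2 have near-identical copies, and Gm16702, which shares sequence with Atp5g1, held 100, 125 and 1868 counts of its own in the 3 blocks, so the Atp5g1 counts are uncertain. Of the peripheral stalk, Atp5h had −0.84 and −0.03 and Atp5j −0.36 and 0.42.

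The members lie on 19 chromosomes, 3 of them on X, so they share no neighbourhood. In GENCODE M21 on mm10, 24 of the 81 overlap another protein-coding gene. In a search of GENCODE M21 transcripts with the last 500 bases of each member, 19 members had another gene at 95% identity or more over 100 bases or more, with 44 such copies, and their counts are uncertain. Ndufs5, without a count, has a copy at 99.4% identity, BC002163, which held 587 counts.

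Cell-to-cell spread was larger in the LT-HSC blocks. Over the 75 members with at least 2000 counts and cells thinned to 97978 counts, the median coefficient of variation (SD over mean) of a gene was 0.77 in LT-HSC 1 to 16, 0.72 in LT-HSC 17 to 34 and 0.49 in CMP. It was above that in CMP for 71 members (94.7%) in the first block and 68 (90.7%) in the second. For other genes with at least 2000 counts these shares were 83.2% and 85.0%, so wider spread in LT-HSC was common to most genes. In a thinned cell, 51 to 68 of the 81 members had at least 10 counts in LT-HSC 1 to 16 (median 58.5), 49 to 74 in LT-HSC 17 to 34 (median 62) and 64 to 74 in CMP (median 70).

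Within LT-HSC 17 to 34 the members' share ran with the depth of the cell. Across its 18 cells the share and the total count had a Pearson r of 0.89 and a Spearman rho of 0.82. In LT-HSC 1 to 16 these were 0.29 and 0.34 over 16 cells, and in CMP −0.06 and −0.17 over 24. Both measures come from the same library, and RNA per cell, capture and sequencing depth cannot be told apart in a total. The share of 54 cell cycle genes, 12.5 per 10000 in the median of LT-HSC 1 to 16, 36.9 in LT-HSC 17 to 34 and 70.4 in CMP, had an r of 0.70 with the members' share in LT-HSC 17 to 34, 0.09 in LT-HSC 1 to 16 and −0.27 in CMP. Its part in the members' shares was not tested.

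**Figure D5:**
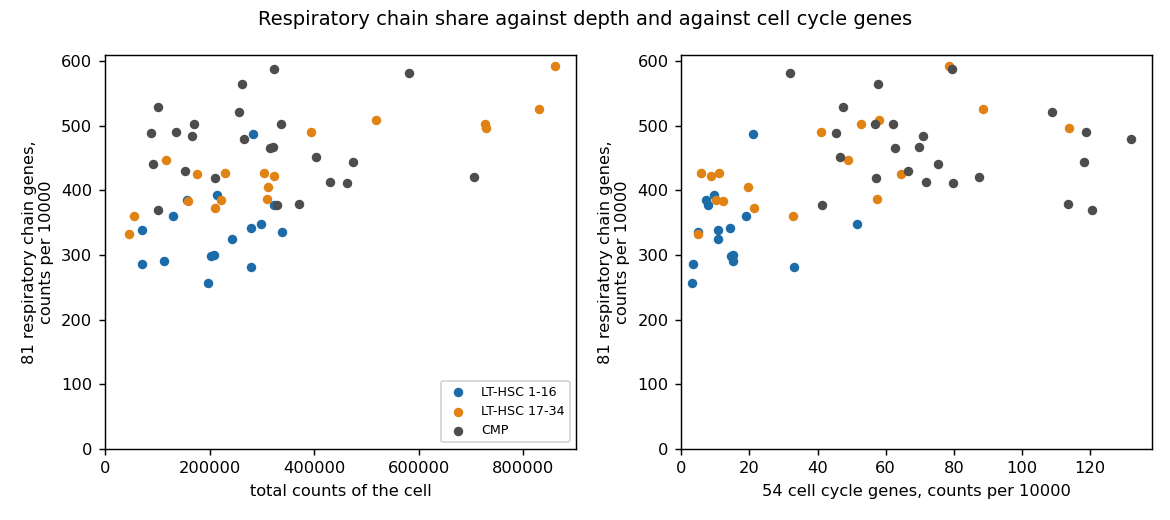
Summed share of the 81 genes per 10000 counts of a cell, against the cell's total count (left) and against the share of 54 cell cycle genes per 10000 (right), with 1 point per cell coloured by block. LT-HSC 17 to 34 forms a rising band on the left (r 0.89 over 18 cells), while CMP shows none (r −0.06 over 24 cells).

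Genes of the 2 kinds of ribosome lay on different sides of 0 where LT-HSC 1 to 16 were compared. The 77 mitochondrial ribosomal protein genes had median log2 ratios of −0.27 for LT-HSC 1 to 16 over CMP, 0.01 for LT-HSC 17 to 34 over CMP and −0.40 between the LT-HSC blocks, near the members' own. The 75 cytoplasmic ribosomal protein genes with counts had 0.27, −0.02 and 0.30. Their summed share was 2666 per 10000 in the median of LT-HSC 1 to 16, 2236 in LT-HSC 17 to 34 and 2077 in CMP. Without them in the total, the medians of the members' share were 460, 552 and 588, in the same order.

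Of the pathway around the members, assembly factors had a median of 0.05 for LT-HSC 1 to 16 over CMP. Of 43 with at least 20 counts, 9 were at least 2-fold higher and 11 lower, beside 22.7% and 37.3% of all genes. Ndufaf4, a complex I assembly factor, stood at 31.4, 68.9 and 80.7 CPM, Ndufaf7 at 99.1, 20.2 and 49.8 and Uqcc2, needed for complex III, at 113, 311 and 312. Between the LT-HSC blocks 8 assembly factors were higher and 16 lower, beside 28.1% and 28%, with a median of −0.47 that is close to the −0.46 of the members. Subunit and complex-bound genes outside the symbol rule lay lower in LT-HSC 1 to 16, with a median of −0.66 over 6 genes and 1 of them, Higd1a, at least 2-fold lower at 97.6, 284 and 322 CPM. Atpif1, the inhibitor of ATP synthase, stood at 1138, 1726 and 2041 CPM.

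The tricarboxylic acid cycle, which supplies NADH and succinate, had 6 of 13 genes at least 2-fold lower in LT-HSC 1 to 16 than in CMP and 1 higher, beside 37.3% and 22.7% of all genes, with a median of −0.99. The summed share of the 13 genes differed less, at 15.5 per 10000 counts against 19.9, a log2 ratio of −0.37. Cs, citrate synthase, stood at 59.8, 60.4 and 121 CPM, Idh3a at 49.6, 110 and 155 and Fh1, fumarase, at 45.7, 103 and 163, while Mdh2 was at 434, 329 and 469. Of the 13, 10 lay below 0 and 3 above, among these Suclg2 at 128, 112 and 53.1 CPM and Idh3b at 199, 198 and 111. In LT-HSC 17 to 34, 3 were lower and 2 higher than in CMP, beside 34.5% and 20%. Regulators of mitochondrial gene expression were low in counts, with 7 of 11 at least 2-fold lower in LT-HSC 1 to 16 than in CMP and 1 higher, beside the same background shares as for the cycle. Nrf1 stood at 2.64, 17.2 and 18.7 CPM, with 9 counts in the first block, and Pprc1, a coactivator, at 2.64, 23.8 and 19.7. Gabpa, which binds the Ets motif, stood at 13.5, 19 and 35.3 CPM, and Tfam, which packages mitochondrial DNA, at 67.4, 60.9 and 69.8. The kinases that restrain entry of pyruvate into the cycle had no common direction. Pdk3 stood at 141, 98.8 and 65.3 CPM, Pdk1 at 17.01, 76.4 and 21.8 and Pdk2 at 3.23, 2.45 and 7.65, while Pdk4 had no count. The subunits made from mitochondrial DNA are not analysed here.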

How the data were processed

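Values are counts, whole numbers per gene symbol and cell, as the authors deposited them. Per the labels' protocols, cells were reverse transcribed by a modified Smart-seq2 method with a barcoded oligo(dT) primer carrying a molecular identifier, pooled, and captured at 3′ ends. The submitters' processing notes list Seurat 2.0, TopHat2 2.0.12, HTSeq and mm10, without saying what each was used for. Whether counts are molecules or reads is not given in the sources used here, nor is the use of strand. Counts were not divided by gene length.

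All 58 cells were kept. Counts were summed over a block and scaled to 1000000 (CPM), with exact Poisson 95% intervals. Log2 ratios used 0.5 added to each count, with exact conditional binomial intervals. They were tried on simulated Poisson counts, the error these intervals assume, without spread between cells. That trial cannot tell how the intervals hold for these data. Cells of a gate are not replicates, so no p-value was computed. No doublet caller was run, and no 2 cells had identical counts (0 of 1653 pairs). Named are the 5 highest and 5 lowest members of each comparison of blocks with at least 50 counts, alternative forms, core genes, and members with few counts, a leading cell or a copy. Ndufb7, Ndufb8, Cox6c, Ndufa11, Atp5h and Atp5j fall outside this and were chosen after their values were seen, and some genes are not reported here. Of the pathway lists, named genes were chosen after their values were seen. Members, lists and the LT-HSC cut were chosen with earlier results of these data known. Copies were searched with blastn 2.17.0. Python 3.11.15, numpy 2.4.6, scipy 1.17.1 and pandas 2.3.3 were used.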

Additional observations from a re-analysis of the deposited data

How the results depend on the processing

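No paired analysis was possible because the results come from no test, and cell numbers only name cells. Added after seeing the data were the minimum of 2000 counts and the search for copies in transcripts in place of the genome.

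Leaving out each cell in turn gave medians of the members between −0.49 and −0.33 for LT-HSC 1 to 16 over CMP, −0.05 and 0.03 for LT-HSC 17 to 34 over CMP, −0.51 and −0.38 between the LT-HSC blocks and −0.18 and −0.10 for all LT-HSC over CMP. In the same order, 2 to 4, 2 to 4, 2 to 4 and 2 to 3 members were then at least 2-fold higher, and 7 to 13, 1 to 2, 8 to 17 and 1 to 3 lower. Averaging CPM over cells, the medians were −0.10 for LT-HSC 17 to 34 over CMP, −0.30 between the blocks and −0.26 for all LT-HSC, with 4 members lower in the last. Median-of-ratios scaling gave −0.18 and 6 lower for LT-HSC 1 to 16 over CMP, 0.15 for LT-HSC 17 to 34 and, reversed, 0.020 for all LT-HSC. The total without ribosomal protein genes gave −0.29 for LT-HSC 1 to 16 over CMP and −0.36 between the blocks, and summed shares of 460, 552 and 588. Thinning gave −0.34 between the blocks, −0.22 for all LT-HSC over CMP with 3 lower, and 3 lower for LT-HSC 17 to 34. With only CMP 1 and 2, 5 members were higher in each comparison against CMP, and 2 were lower for LT-HSC 17 to 34 and 5 for all LT-HSC. At the minimum of 2000 counts 1 member was higher in each of the 4 comparisons, and 0 lower for LT-HSC 17 to 34 and for all LT-HSC. The cause of these shifts was not tested, except that a higher minimum leaves out the low alternative forms.

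Of 23 ratios of named members at least 2-fold from 1, 23 remained so with an added count of 1, 20 with CPM averaged over cells, 21 by median-of-ratios scaling, 20 with the total without ribosomal protein genes, 21 after thinning and 22 without the 6 shallow cells. Of the 13 against CMP, 13 remained without CMP 1 and 2 and 11 with only these. Among those lost under 1 or more of these settings were Atp5g3 and Cox7a2l for LT-HSC 1 to 16 over CMP, and Ndufa4 and Ndufa7 between the LT-HSC blocks. At 98% identity over 150 bases 12 members had a copy, not 19. Members with few counts (Cox7a1, Cox6a2, Cox4i2, Atp5sl and Atp5s) are limited by depth.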
